A study of Petunia x hybrida with 48 samples.

Results

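Of the petunia genes annotated as the abscisic acid (ABA) receptor PYR1, 4 were followed across axillary buds and phosphate (P) treatments: Peaxi162Scf00136g00113.1, Peaxi162Scf00284g00412.1, Peaxi162Scf00615g00067.1 and Peaxi162Scf00009g00132.1, written below without the genome prefix. They were chosen by their description, with earlier results of these data known. The experiment on P withdrawal measured 34301 genes and the experiment on P resupply 32830. All 4 were present in both. Each had a mean of at least 10 normalized counts over the 24 libraries of an experiment, the minimum for testing, which 22363 and 22584 genes reached. The descriptions came from lists of genes that the study had found to differ in these same samples, so the number of receptor genes that differed between buds or treatments is not independent evidence. At least 4 further genes were described as PYR1-type receptors or as their homologs, and they are given after the 4.

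PYR/PYL/RCAR proteins are the soluble receptors of ABA, the hormone of drought, seed dormancy and bud dormancy. A receptor that has bound ABA closes over a clade A protein phosphatase 2C and blocks it. The phosphatase then no longer holds SnRK2 kinases inactive, and the kinases phosphorylate the ABF transcription factors that act on ABA-responsive promoters. In Arabidopsis the receptors form a family with overlapping functions whose members differ in their need for ABA and in their tissues, and ABA itself commonly lowers the transcripts of several receptors while it raises those of the phosphatases. ABA is generally an inhibitor of axillary bud outgrowth. Scf00284g00412.1 and Scf00009g00132.1 had Arabidopsis PYL4 as their closest hit in the annotation. Scf00615g00067.1 carried a START-type domain description that differs from the polyketide cyclase description of the other 3.

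Transcripts were measured by RNA-seq in buds of the inbred *Petunia hybrida* line V26, with buds numbered from the base of the shoot, so that buds 2 and 3 were basal and buds 6 and 7 apical. In experiment 1, plants grown at high P (250 µM) were moved to fresh high P, called constant high P, or to low P (5 µM), called after withdrawal. In experiment 3, plants grown at low P were moved to fresh low P, called constant low P, or to high P, called after resupply. Buds were taken 24 h after the move. Each of the 8 groups of an experiment (4 buds by 2 treatments) had 3 libraries, 48 in all. Each library came from buds pooled over several plants, so p-values measure the spread between pools. The paper grew the plants in a few shared hydroponic containers and does not say which pools shared one. P-values between P treatments therefore do not measure the spread between containers, and treatment and container cannot be told apart. All groups carried the same genotype with no transgene or mutation. The experiments were normalized separately, and no level was tested across them.

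The deposited normalized counts summed to between 39733086 and 46381919 per library in experiment 1 and to between 82964169 and 95608712 in experiment 3, and none of the 4 genes was at 0 in any library. Replicate 3 of bud 3 in constant low P stood apart. Its correlation with the other 2 libraries of its group was 0.929, the lowest of experiment 3, and it was closer to bud 2 in the same treatment, at 0.976. Its count of *DRM1*, a marker of dormant buds, was 18587, against 10609 to 16408 in bud 2 and 2796 and 3609 in the other bud 3 libraries. All 3 libraries of bud 3 in constant low P correlated better with another group than with their own. For replicate 1 this was bud 3 after resupply, at 0.984 against 0.963. The same held for 22 of 24 libraries in experiment 1 and 11 of 24 in experiment 3. Results of the 4 receptor genes that rest on replicate 3 of bud 3 in constant low P are given with and without it. Among the markers of the growth state of buds, the sum of 2 mitotic *CDKB* kinases in constant high P was 2031 to 3554 in bud 2 and 11569 to 14479 in bud 6, while *DRM1* was 7110 to 8912 in bud 2 and 237 to 533 in bud 6. The sum of 5 lignified vessel genes, markers of xylem, was 486 to 914 in bud 2 and 1018 to 1507 in bud 6, with 0 of the 5 at 0 in bud 2 and 1 in bud 6. The part of these markers in the differences of the receptor genes between buds was not tested.

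In experiment 1, 3 of the 4 receptor genes were lower in the apical than in the basal buds, and Scf00009g00132.1 was higher. Between bud 6 and bud 2 in constant high P, the fall was 4.83-fold for Scf00136g00113.1, 3.23-fold for Scf00284g00412.1 and 2.43-fold for Scf00615g00067.1, and the rise of Scf00009g00132.1 was 2.34-fold. A gene was called changed when limma, fitted to all genes on log2(normalized count + 1), gave a difference of more than 2-fold with a Benjamini-Hochberg adjusted p under 0.05. By this rule 40.2% of all genes tested changed between buds 6 and 2, 23.5% being lower and 16.7% higher, so a change here was common, and the 4 genes are described by size and direction. In whole buds, fewer cells of a type and less RNA per cell cannot be told apart.

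**Figure D1:**
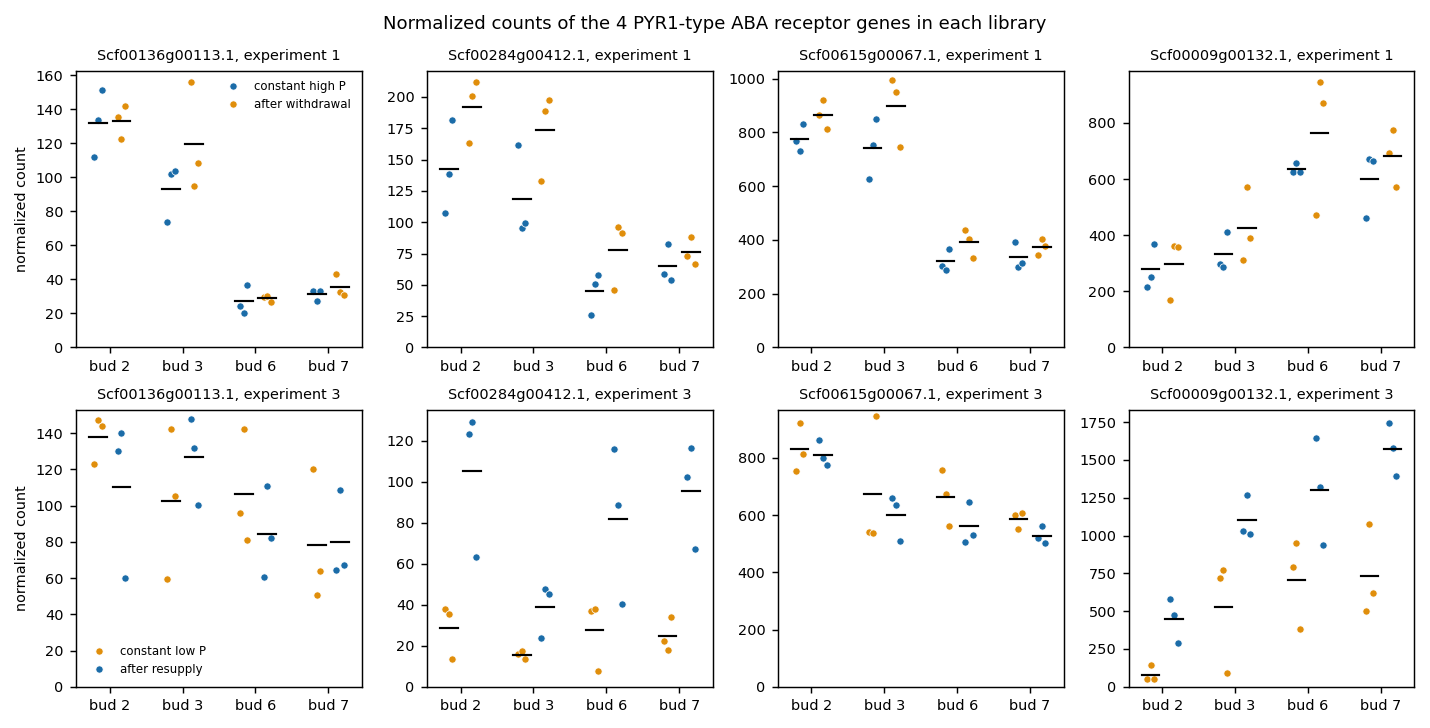
Normalized count of each of the 4 receptor genes in every library, by bud and treatment, with experiment 1 and experiment 3 in separate panels because they were normalized separately. Points are libraries and short bars are group means (n = 3). In experiment 1, Scf00136g00113.1 lies between 20.5 and 42.9 in buds 6 and 7 and between 73.7 and 156 in buds 2 and 3, while in experiment 3 the lowest group mean of Scf00009g00132.1 is that of bud 2 in constant low P.

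Scf00136g00113.1 separated basal from apical buds in experiment 1. In constant high P its normalized count was 112, 134 and 151 in bud 2, 73.7, 102 and 104 in bud 3, 24.3, 20.5 and 36.7 in bud 6, and 33.3, 27.3 and 33.1 in bud 7. After withdrawal it was 135, 123 and 142 in bud 2, 156, 95.0 and 108 in bud 3, 29.7, 30.2 and 26.9 in bud 6, and 42.9, 32.5 and 30.9 in bud 7. Every library of buds 2 and 3 was above every library of buds 6 and 7, in either treatment. Libraries of buds 6 and 7 also lay apart from those of bud 3 for 71.4% and 67.1% of all genes in constant high P and for 72.3% and 71.9% after withdrawal. In limma the log2 difference of bud 6 from bud 2 was -2.27 (SE 0.224, adjusted p = 2.2e-08) in constant high P and -2.17 (adjusted p = 4.8e-08) after withdrawal. The difference of bud 3 from bud 2 in constant high P was -0.51 and did not pass the test (limma, adjusted p = 0.219).

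Scf00615g00067.1 was also higher in the basal buds, with a smaller range. Its normalized count in constant high P was 767, 732 and 831 in bud 2, 626, 754 and 848 in bud 3, 304, 289 and 367 in bud 6, and 393, 299.8 and 314 in bud 7. After withdrawal it was 866, 921 and 813 in bud 2, 995, 952 and 745 in bud 3, 437, 404 and 334 in bud 6, and 344, 403 and 378 in bud 7. Again no library of buds 6 and 7 reached the lowest of buds 2 and 3. The log2 difference of bud 6 from bud 2 in limma was -1.28 (SE 0.141, adjusted p = 9.2e-08) in constant high P and -1.15 (adjusted p = 4.5e-07) after withdrawal.

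Scf00284g00412.1, of the PYL4 type, was also lower in the apical buds but varied more between replicates. Its normalized count in constant high P was 107, 138 and 182 in bud 2, 162, 95.5 and 99.3 in bud 3, 25.6, 51.0 and 57.9 in bud 6, and 58.4, 82.6 and 54.1 in bud 7. After withdrawal it was 164, 200.4 and 212 in bud 2, 133, 189 and 198 in bud 3, 46.2, 96.0 and 91.6 in bud 6, and 72.8, 88.5 and 67.0 in bud 7. Buds 6 and 7 did not overlap bud 2 within a treatment. The log2 difference of bud 6 from bud 2 was -1.69 (SE 0.316, limma, adjusted p = 7.5e-05) in constant high P and -1.35 (adjusted p = 0.00076) after withdrawal. Quantile normalization took it under 2-fold, to -0.99 and -0.86, and for bud 7 in constant high P to -0.59 with a limma adjusted p of 0.102. For bud 7 after withdrawal it gave -0.89.

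Scf00009g00132.1, the other PYL4-type gene, ran the opposite way. In constant high P its normalized count was 216, 253 and 368 in bud 2, 298, 286 and 410.2 in bud 3, 627, 659 and 627 in bud 6, and 459.9, 671 and 664 in bud 7. After withdrawal it was 171, 361 and 357 in bud 2, 310.5, 572 and 391 in bud 3, 473, 947 and 869 in bud 6, and 694, 776 and 573 in bud 7. Buds 6 and 7 were above bud 2 without overlap in both treatments, and after withdrawal bud 3 overlapped both bud 2 and bud 6. The log2 difference of bud 6 from bud 2 was 1.23 (SE 0.299, limma, adjusted p = 0.0011) in constant high P and 1.38 (adjusted p = 0.00037) after withdrawal.

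Bud 7 gave the same picture as bud 6, with the same bud 2 libraries as reference. The first 3 genes were lower and Scf00009g00132.1 was higher in constant high P, where 20.5% of all genes were lower in bud 7 and 13.9% higher. The same held after withdrawal, where 20.6% were lower and 15.2% higher in bud 7, and 21.8% lower and 15.9% higher in bud 6. Groups that did not overlap were as common, at 77.0% and 73.7% of all genes for buds 6 and 7 against bud 2 in constant high P and 75.8% and 76.0% after withdrawal. The log2 differences of bud 7 from bud 2 in constant high P were -2.04 for Scf00136g00113.1, -1.11 for Scf00284g00412.1, -1.22 for Scf00615g00067.1 and 1.11 for Scf00009g00132.1, with limma adjusted p-values of at most 0.004. Single libraries decided whether the smaller ones passed 2-fold. The value of Scf00009g00132.1 was 0.95 without replicate 1 of bud 2 in constant high P and 0.91, after withdrawal, without replicate 1 of bud 2, and that of Scf00284g00412.1 in constant high P was -0.92 without replicate 3 of bud 2 and -0.99 without replicate 3 of bud 7.

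Against bud 3, the other basal bud, Scf00009g00132.1 no longer reached 2-fold in the main fit. In constant high P, 3 receptor genes were lower in bud 6 than in bud 3 (as were 21.6% of all genes) and 2 in bud 7 (18.5%), and after withdrawal 3 were lower in each (18.9% and 18.0%). The log2 difference of Scf00009g00132.1 between bud 6 and bud 3 was 0.96 (limma, adjusted p = 0.0075) in constant high P and 0.83 (adjusted p = 0.020) after withdrawal. It passed 2-fold without replicate 3 of bud 3 in constant high P, at 1.12, and, after withdrawal, without replicate 1 of bud 6, at 1.14, or replicate 2 of bud 3, at 1.07. With quantile normalization it was also called in constant high P, at 1.10 (limma, adjusted p = 0.0035). For bud 7 against bud 3 in constant high P it passed without replicate 1 of bud 7, at 1.03, or replicate 3 of bud 3, at 1.01. Scf00284g00412.1 was under 2-fold between buds 7 and 3 in constant high P, at -0.84, and over it without replicate 2 of bud 7, at -1.03. Between buds 6 and 3 after withdrawal it was -1.19, and -0.86 without replicate 1 of bud 6. Quantile normalization took every call of this gene against bud 3 under 2-fold, to -0.77 for bud 6 in constant high P and to -0.74 and -0.77 for buds 6 and 7 after withdrawal, and that of Scf00136g00113.1 in bud 7 in constant high P to -0.95. Between buds 3 and 2, and between buds 7 and 6, none of the 4 passed in either treatment, where 1.09% and 1.48% of all genes changed in constant high P and 2.49% and 0.0537% after withdrawal.

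**Figure D2:**
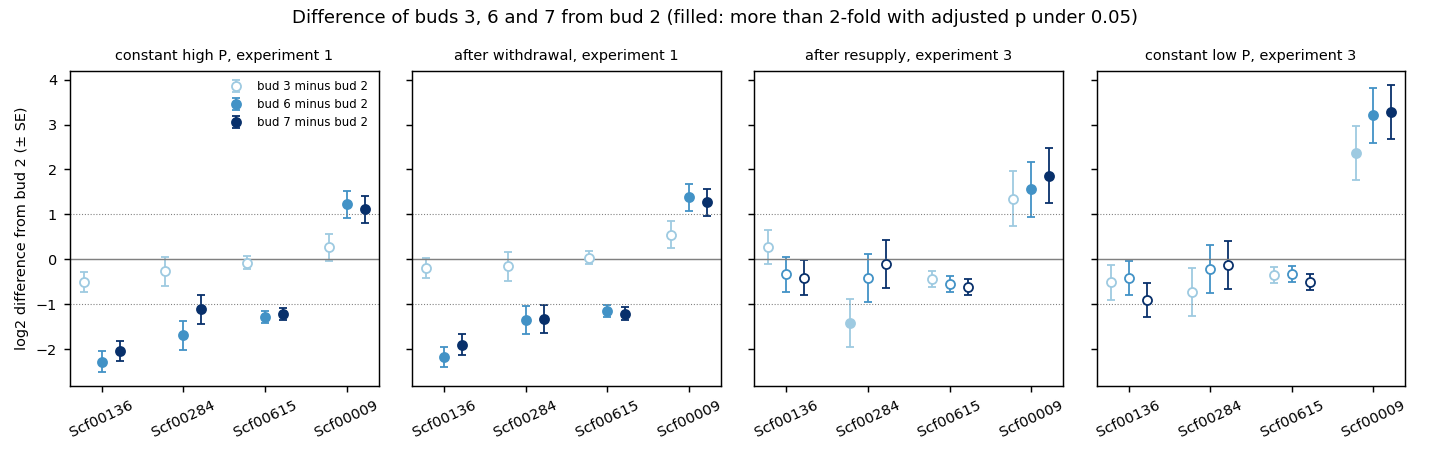
Log2 difference of buds 3, 6 and 7 from bud 2 for each of the 4 receptor genes (points, with bars of 1 standard error from limma, n = 3 libraries per group), with a panel for each treatment of each experiment. Filled points passed 2-fold, the dotted lines, and an adjusted p under 0.05. Scf00136g00113.1 stands at -2.27 for bud 6 in constant high P and at -0.41 in constant low P, and Scf00009g00132.1 at 1.23 and 3.21.

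Ranked by group mean, experiment 1 divided Scf00136g00113.1 and Scf00615g00067.1 into the 4 groups of buds 2 and 3 above the 4 groups of buds 6 and 7, and the only neighbours in the order whose libraries did not overlap were those at this step. For Scf00284g00412.1 and Scf00009g00132.1 all neighbouring groups overlapped. The highest group mean was 4.91 times the lowest for Scf00136g00113.1, 4.28 times for Scf00284g00412.1, 2.81 times for Scf00615g00067.1 and 2.74 times for Scf00009g00132.1.

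After withdrawal of P for 24 h none of the 4 genes was called in any bud. Across all genes it changed 0.0134% in bud 2, 0.00447% in buds 3 and 6 and 0% in bud 7 by limma. For every receptor gene and bud the libraries of the treatments overlapped, while they lay apart for 11.6%, 7.42%, 12.3% and 6.26% of all genes in buds 2, 3, 6 and 7. The log2 differences of low from high P, averaged over the 4 buds, were 0.17 (SE 0.112) for Scf00136g00113.1, 0.51 (SE 0.158) for Scf00284g00412.1, 0.22 (SE 0.070) for Scf00615g00067.1 and 0.19 (SE 0.150) for Scf00009g00132.1, with limma adjusted p-values of 0.260 to 0.610. All 4 were positive, with a median of 0.21 against -0.004 over all genes. For Scf00284g00412.1, the largest of the 4, the 95% interval ran from 0.18 to 0.84. At that average 0.00894% of all genes changed, 2 genes in all, and 2632 had an unadjusted p under 0.05.

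In experiment 3 fewer of the receptor genes were called between basal and apical buds. After resupply, 1 of the 4 differed between bud 6 and bud 2 and 1 between bud 7 and bud 2, where 13.1% and 13.4% of all genes were higher. In constant low P it was again 1 of 4 for each, where 12.6% and 13.5% were higher. In all 4 comparisons this was Scf00009g00132.1, which was higher in the apical buds. None of the 4 genes passed between buds 6 or 7 and bud 3 or between buds 7 and 6, where in that order 0.607%, 1.30% and 0% of all genes changed after resupply and 0.726%, 3.72% and 0.00443% in constant low P.

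Scf00009g00132.1 had its lowest group mean in bud 2 of the plants kept at low P. Its normalized count there was 51.2, 141 and 48.4, compared with 717, 775 and 90.0 in bud 3, 791, 950.4 and 381 in bud 6, and 498, 1078 and 617 in bud 7. Buds 6 and 7 lay above bud 2 without overlap, as 65.9% and 69.1% of all genes lay apart in these pairs, and bud 3 overlapped bud 2 only through replicate 3, the library that stood apart. In limma the log2 difference from bud 2 was 3.21 (adjusted p = 4.0e-04) for bud 6 and 3.27 (adjusted p = 0.00023) for bud 7. For bud 3 it was 2.37 (adjusted p = 0.0072, with 7.78% of all genes higher), and 3.38 without replicate 3 of bud 3. Leaving out replicate 1 of bud 3 instead gave 1.89, which did not pass the test (limma, adjusted p = 0.057).

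After resupply its normalized count was 579.6, 474 and 289 in bud 2, 1031, 1269 and 1011 in bud 3, 1645, 1322 and 935 in bud 6, and 1746, 1577 and 1395 in bud 7. Bud 2 was below every library of the other buds, and its libraries lay apart from those of buds 3, 6 and 7 for 74.6%, 73.8% and 75.3% of all genes. The log2 difference from bud 2 was 1.56 for bud 6 (limma, adjusted p = 0.030) and 1.86 for bud 7 (adjusted p = 0.011), while 1.35 for bud 3 did not pass (adjusted p = 0.058). Bud 3 was called with quantile normalization, at 1.55, and with precision weights, the replicate block or 6 libraries only (limma, adjusted p of 0.0025 to 0.039). The call for bud 6 was lost without replicate 2 or 3 of bud 2 or replicate 1 or 2 of bud 6, with values of 1.27 to 1.63, and the call for bud 7 without replicate 3 of bud 2, at 1.58 with a limma adjusted p of 0.052. The highest group mean of this gene in experiment 3 was 19.6 times the lowest, the widest range of the 4 genes.

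Scf00136g00113.1 did not separate the buds in experiment 3 as it had in experiment 1. Its normalized count after resupply was 130.4, 140.4 and 60.3 in bud 2, 148, 132 and 100.3 in bud 3, 60.4, 111 and 82.1 in bud 6, and 64.6, 109 and 67.3 in bud 7. In constant low P it was 123, 147 and 144 in bud 2, 59.4, 142 and 105 in bud 3, 96.2, 142 and 81.0 in bud 6, and 120.1, 50.8 and 63.8 in bud 7. The ranges of buds 2, 3 and 6 overlapped in each treatment. Bud 7 was below bud 2 in constant low P, with a log2 difference of -0.90 (limma, adjusted p = 0.047) that fell short of 2-fold and was -1.26 without replicate 1 of bud 7. For bud 6 in constant low P the difference from bud 2 was -0.41, beside -2.27 in constant high P of experiment 1. These groups differed in P, and the experiments also differed in read length, sequencing depth and pipeline version. The values came from separately normalized data and were not tested against each other.

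In experiment 3, Scf00615g00067.1 had its highest group means in bud 2, with differences that were under 2-fold. After resupply its normalized count was 861, 799 and 773 in bud 2, 659, 636 and 509 in bud 3, 505, 646 and 529 in bud 6, and 519.7, 561 and 501 in bud 7. All 9 libraries of the other buds were below those of bud 2. Libraries of buds 3, 6 and 7 lay apart from those of bud 2 for 74.6%, 73.8% and 75.3% of all genes. The log2 differences from bud 2 were -0.44 for bud 3, -0.54 for bud 6 and -0.62 for bud 7, each under 2-fold with a limma adjusted p of 0.037, 0.012 and 0.0049. In constant low P it was 754, 921 and 814 in bud 2, 541, 538 and 945 in bud 3, 757, 674 and 562 in bud 6, and 601, 551 and 608 in bud 7. The value of 945 in bud 3 belonged to the library that stood apart, and without it the difference of bud 3 from bud 2 went from -0.35 to -0.62, still under 2-fold.

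Resupply of P raised the PYL4-type genes Scf00284g00412.1 and Scf00009g00132.1, and no change was called for Scf00136g00113.1 or Scf00615g00067.1. Averaged over the 4 buds, Scf00284g00412.1 rose 3.19-fold (log2 difference 1.67, SE 0.269, limma, adjusted p = 4.3e-05) and Scf00009g00132.1 rose 2.97-fold (1.57, SE 0.303, adjusted p = 0.00026). The average changed 6.05% of all genes, with 1.94% higher and 4.11% lower. Both calls held when any single library was left out, at 1.50 to 1.78 for Scf00284g00412.1 and 1.32 to 1.70 for Scf00009g00132.1. The difference of Scf00009g00132.1 was 1.32 without replicate 3 of bud 3 in constant low P.

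**Figure D3:**
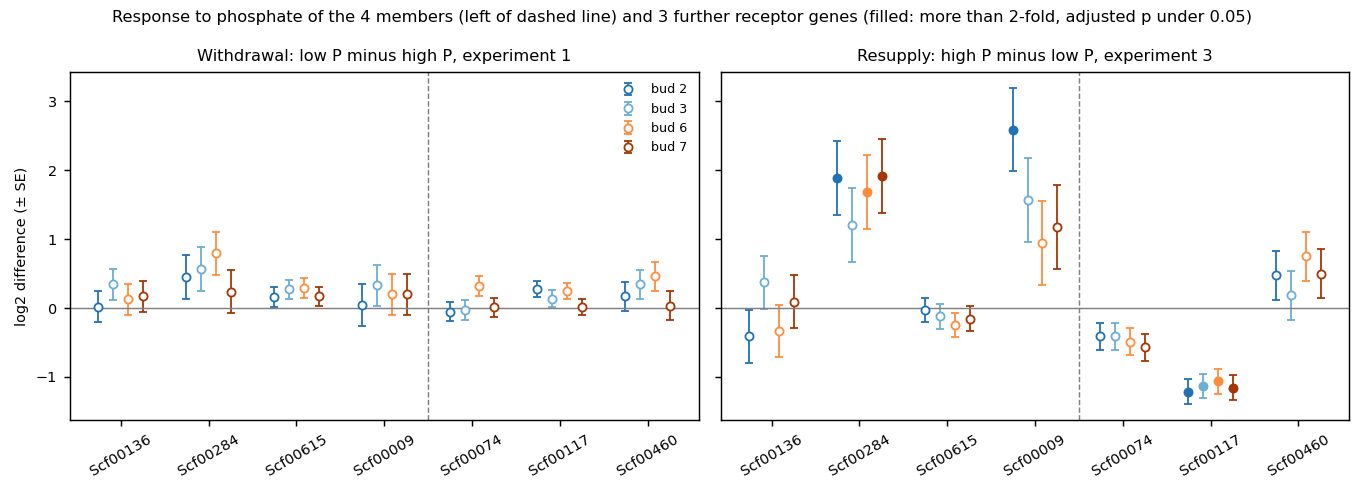
Log2 difference between P treatments in each bud (points, with bars of 1 standard error from limma, n = 3 libraries per group), for withdrawal (low minus high P, experiment 1) and resupply (high minus low P, experiment 3). The 4 receptor genes stand left of the dashed line and 3 further receptor genes right of it, and filled points passed 2-fold and an adjusted p under 0.05. After resupply Scf00284g00412.1 stands at 1.89, 1.21, 1.68 and 1.91 in buds 2, 3, 6 and 7, and no point is filled after withdrawal.

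Scf00284g00412.1 was higher after resupply in every bud. In constant low P its normalized count was 37.9, 35.4 and 13.4 in bud 2, 16.1, 17.2 and 13.4 in bud 3, 37.0, 37.8 and 7.89 in bud 6, and 22.5, 18.0 and 33.8 in bud 7. After resupply it was 123, 129 and 63.1 in bud 2, 23.6, 47.8 and 45.0 in bud 3, 116, 88.4 and 40.3 in bud 6, and 102, 117 and 67.4 in bud 7. The treatments did not overlap in any of the 4 buds, which was so for 46.8%, 27.4%, 50.1% and 45.3% of all genes in buds 2, 3, 6 and 7. The log2 differences were 1.89, 1.21, 1.68 and 1.91 in that order, with limma adjusted p-values of 0.032, 0.098, 0.026 and 0.021. Bud 3 therefore did not pass, and after resupply it was lower than bud 2 by a log2 difference of -1.41 (limma, adjusted p = 0.028, with 17.5% of all genes lower).

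For Scf00009g00132.1 the difference between treatments was 2.59 in bud 2 (limma, adjusted p = 0.014), and 1.57, 0.94 and 1.18 in buds 3, 6 and 7, which did not pass (adjusted p = 0.061, 0.253 and 0.179). The treatments did not overlap in buds 2, 3 and 7 and overlapped in bud 6. In bud 3 the value was 0.56 without replicate 3 of constant low P, the library that stood apart, whereas leaving out replicate 1 or 2 of that group gave 2.05 or 2.10, which passed (limma, adjusted p = 0.015 and 0.028). The response of bud 6 differed from that of bud 2 by -1.65 (SE 0.857), which did not pass (limma, adjusted p = 0.617). No receptor gene had a response in buds 3, 6 or 7 that differed from that in bud 2 by this test, which called 0%, 0.0133% and 0.00443% of all genes.

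Of the 4 genes, resupply thus raised 2 in bud 2, none in bud 3 and 1 in each of buds 6 and 7, where 1.22%, 2.86%, 1.83% and 1.31% of all genes rose. These calls in single buds rest on few libraries. In bud 2 both calls were lost without replicate 1 or 2 of the resupplied libraries or replicate 1 or 3 of those at low P, with values of 1.43 to 2.15 for Scf00284g00412.1 and 2.32 to 2.52 for Scf00009g00132.1. In bud 6 that of Scf00284g00412.1 was lost without replicate 1 or 2 after resupply, at 1.37 and 1.56, or replicate 3 of constant low P, at 0.98. In bud 7 it was lost without replicate 1 or 2 of either group, at 1.72 to 1.87. Its lower level in bud 3 than in bud 2 after resupply was lost without replicate 1 or 2 of bud 2 or replicate 1 of bud 3, at -1.26, -1.23 and -1.09, and with quantile normalization, at -0.88 (limma, adjusted p = 0.153).

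The intervals bound what resupply could have done to the other genes. For Scf00136g00113.1 the average log2 difference was -0.07, with a 95% interval of -0.47 to 0.33 (limma, adjusted p = 0.773), and for Scf00615g00067.1 it was -0.14, with an interval of -0.32 to 0.05 (adjusted p = 0.195). The libraries of these genes after resupply overlapped those of constant low P in every bud. In bud 2 the growth markers moved with the treatment too. The sum of the *CDKB* kinases was 6848 to 7718 at low P and 11766 to 12400 after resupply, and *DRM1* was 10609 to 16408 and 7482 to 9676. In bud 3 both markers overlapped between treatments. The *CDKB* sum there was 7190 to 25710 at low P and 17008 to 28720 after resupply, and *DRM1* was 2796 to 18587 and 1372 to 4156. The part of these markers in the response of the receptor genes was not tested.

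Over the 8 group means of an experiment the pairs of genes kept company differently. As a description, Pearson's r of Scf00136g00113.1 and Scf00615g00067.1 was 0.983 in experiment 1 and 0.693 in experiment 3, and that of Scf00615g00067.1 and Scf00009g00132.1 was -0.894 and -0.855. Scf00284g00412.1 and Scf00009g00132.1 were opposed in experiment 1, at -0.823, and not in experiment 3, at 0.434. These points share libraries and the contrast between basal and apical buds.

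The genes with the most similar profiles were sought among 3181 described genes, by the lower of the correlations over the 8 group means of the 2 experiments. For Scf00136g00113.1 these were Scf00128g00023.1, an alanine aminotransferase (0.922), Scf00207g00045.1, a CBL-interacting protein kinase (0.888), and Scf00300g00076.1, of unknown function (0.872). For Scf00284g00412.1 they were Scf00016g02736.1, a LOB domain protein of the LBD37 type (0.919), a family known in Arabidopsis for repressing nitrogen-responsive genes, Scf00264g00214.1, a peroxidase (0.914), and Scf00473g00015.1, an ankyrin repeat protein (0.899). For Scf00615g00067.1 they were Scf00377g00720.1, with no described function, Scf00195g01017.1, an alpha-glucosidase, and Scf00515g00132.1, a receptor-like kinase, each at 0.988. For Scf00009g00132.1 they were Scf00231g00224.1, an F-box protein (0.983), Scf00469g00137.1, with no described function (0.974), and Scf00271g00832.1, an 8-amino-7-oxononanoate synthase (0.969).

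Among the further receptor genes, Scf00117g01127.1 fell after resupply. Its normalized count was 2588, 2343 and 2146 in bud 2, 1263, 1527 and 2339.8 in bud 3, 1903, 1548 and 2105 in bud 6, and 2106, 1784 and 2296 in bud 7 in constant low P. After resupply it was 1099, 996 and 945 in bud 2, 805, 671 and 793 in bud 3, 884, 796 and 969 in bud 6, and 767, 960.4 and 1049 in bud 7. The treatments did not overlap in any bud, as for 46.8%, 27.4%, 50.1% and 45.3% of all genes in buds 2, 3, 6 and 7. The average log2 difference was -1.14 (SE 0.090, limma, adjusted p = 2.3e-08), where 4.11% of all genes were lower. The value of 2339.8 in bud 3 belonged to the library that stood apart, and no fit without it is given for this gene.

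Scf00074g01023.1 had an average log2 difference of -0.47 after resupply (limma, adjusted p = 0.00052) and Scf00460g00085.1, a gene named as a receptor homolog, one of 0.48 (adjusted p = 0.029), both under 2-fold. Between buds 6 and 2 in constant high P, Scf00074g01023.1 was lower at -1.06 (limma, adjusted p = 1.3e-06), Scf00117g01127.1 was at -0.69 and Scf00460g00085.1 at -0.23, the last 2 not called. Scf00261g00181.1 was too low to be tested. No further receptor gene was called after withdrawal, where the averages were 0.06 to 0.25.

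**Figure D4:**
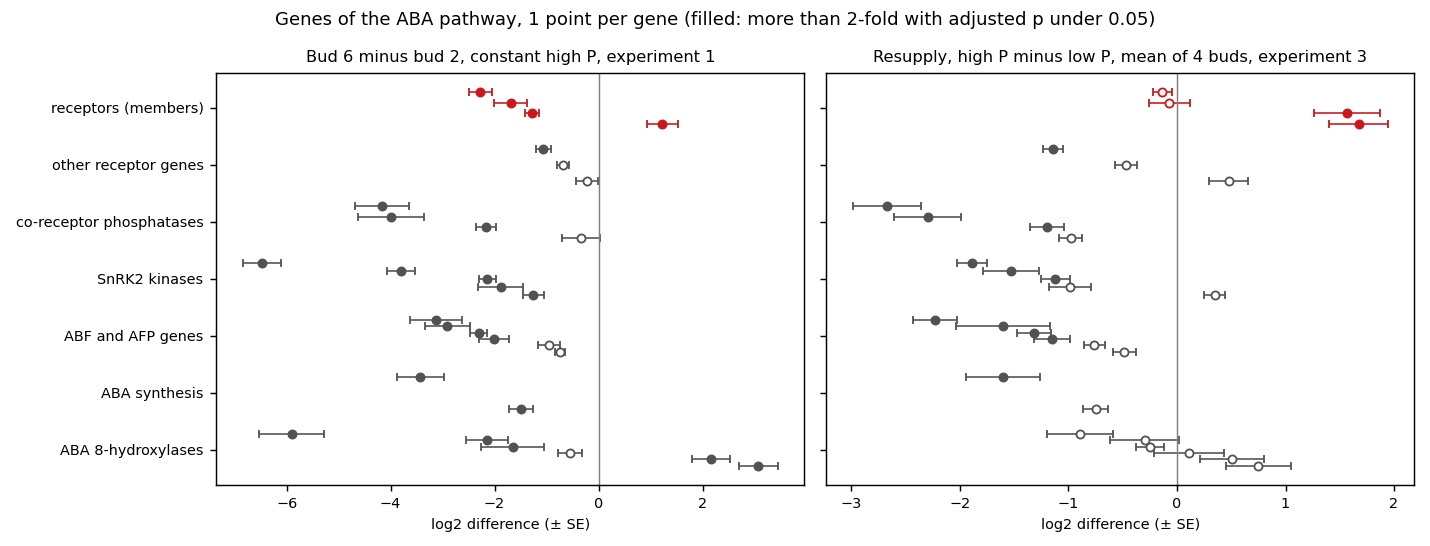
Log2 difference of genes of the ABA pathway, 1 point a gene with a bar of 1 standard error from limma, in rows by role, for bud 6 against bud 2 in constant high P (left) and for resupply averaged over the 4 buds (right). The 4 receptor genes are red and filled points passed 2-fold and an adjusted p under 0.05. After resupply the ABI1-type phosphatase Scf00198g00015.1 lies at -2.67, where the receptor gene Scf00284g00412.1 lies at 1.67.

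Downstream of the receptors, some genes of the pathway fell with resupply, in a comparison in which 4.11% of all genes were lower and 1.94% higher. These lists too were drawn from descriptions of genes that differed in these samples, so their counts are not independent evidence. Of 4 co-receptor phosphatases, which the receptors inhibit, 3 were lower and 0 higher on average over the buds, namely Scf00198g00015.1, of the ABI1 type, at -2.67, Scf00192g00830.1, of the AHG1 type, at -2.30, and Scf00494g00411.1, of the ABI2 type, at -1.20. Of 5 SnRK2 kinases, 3 were lower and 0 higher, Scf00016g01538.1, of the SRK2E type that acts in Arabidopsis guard cells, being at -1.12. Of 6 genes for ABF factors and for AFP proteins, which bind the related factor ABI5, 4 were lower and 0 higher, among them the ABF2-type Scf00252g00228.1 at -1.31 and the AFP1-type Scf00667g00615.1 at -2.23. Of 2 genes of ABA synthesis, Scf00111g00077.1, a 9-cis-epoxycarotenoid dioxygenase of the NCED3 type and the rate-limiting step, was lower at -1.60. None of 6 ABA 8′-hydroxylases, which break ABA down, passed, and the largest limma adjusted p of the genes named here was 0.00063. Of the 4 receptor genes, 2 were called higher and 0 lower, so their median of 0.75 described no single gene. The median over all genes tested was -0.01. Among the further receptor genes, Scf00117g01127.1 was lower, at -1.14. Scf00074g01023.1, at -0.47, and Scf00460g00085.1, at 0.48, were under 2-fold.

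Between buds 6 and 2 in constant high P, where 23.5% of all genes were lower, most genes of these lists other than the 8′-hydroxylases were lower in the apical bud, as were 3 of the 4 receptor genes. The counts were 3 lower of 4 phosphatases, 5 of 5 SnRK2 kinases, 4 of 6 ABF and AFP genes and 2 of 2 synthesis genes, with none higher. The ABI1-type phosphatase was at -4.17, the AHG1-type at -3.99, the SRK2E-type kinase at -2.14 and the NCED3-type gene at -3.43. The 8′-hydroxylases were split, with 2 higher, Scf00016g01819.1 at 3.07 and Scf00016g01820.1 at 2.17, and 3 lower. The median log2 difference of the 4 receptor genes was -1.49, against -0.06 over all genes. After withdrawal of P, 0 genes of these groups passed on average over the buds.

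In constant low P the differences of the other pathway genes between buds 6 and 2 were called for 3 of 4 phosphatases, 3 of 5 SnRK2 kinases, 3 of 6 ABF and AFP genes and 2 of 2 synthesis genes, all lower in bud 6, as were 13.4% of all genes. The ABI1-type phosphatase was at -1.65 (limma, adjusted p = 0.031) and the SRK2E-type kinase at -1.73 (adjusted p = 1.0e-04), in the comparison in which Scf00136g00113.1 was at -0.41, Scf00284g00412.1 at -0.21 and Scf00615g00067.1 at -0.33. The growth markers also differed there, the sum of the *CDKB* kinases being 6848 to 7718 in bud 2 and 11605 to 20905 in bud 6, and *DRM1* 10609 to 16408 and 2028 to 5078. Photosynthesis genes, summed over 8 genes, were at 42785 to 77677 in bud 2 and 131836 to 157635 in bud 6, while in constant high P they were at 122267 to 168752 and 85266 to 123815. Their part in the differences of the receptor genes was likewise not tested.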

How the data were processed

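Reads from pooled buds were trimmed by the authors (Trim Galore) and assigned to *Petunia axillaris* genes by Salmon, and DESeq2 gave normalized values for each experiment on its own. The deposited values are the resulting normalized counts, a normalized signal from which whole reads could not be recovered, so no count model was run. They were analysed as log2(value + 1) in limma 3.58.1 (R 4.3.3, empirical Bayes with trend), with 8 group means fitted to the 24 libraries of an experiment, for genes with a mean of at least 10, and Benjamini-Hochberg adjustment over all of them. The 4 genes, the pathway lists and the rule for similar genes were chosen with earlier results of these data known, and the pathway lists came from the study's gene descriptions. Fold changes of low genes are understated on this scale. Same-numbered pools deviated together (all 3 correlations over 0.1) in 12 of 32 comparisons, 10 in experiment 1 and 2 in experiment 3. The paper does not state which pools share plants. The plants it reports are too few for the pools of the 4 buds to come from separate plants. Libraries of different buds in a treatment were thus not all independent, and the main fit did not pair them. Fits with a replicate block are given below. The alternatives were other pseudocounts, filters, scalings, weights, a replicate block, fits to 6 libraries, no fold threshold and each library left out. Reads of V26 on *P. axillaris* transcripts, and their sharing between related receptor genes, were not checked. Sequences and coordinates were not used here.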

Additional observations from a re-analysis of the deposited data

How the results depend on the processing

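No alternative reversed a call, and the averages over 4 buds after resupply were called throughout for Scf00284g00412.1 (1.50 to 1.82 in the 9 alternatives other than leaving out libraries) and Scf00009g00132.1 (1.54 to 1.66). The counts of receptor genes called that moved by more than 1.5 times were as follows, the cause being not tested. For bud 7 against bud 3 in constant high P (2 called) it was 1 with quantile normalization. Without a filter it was 0 for bud 6 against bud 2 after resupply (1) and 1 for resupply in bud 2 (2). For resupply in bud 3 (0) it was 1 with quantile normalization, precision weights or the replicate block. For bud 3 against bud 2 after resupply (1) it was 2 with precision weights, the replicate block or 6 libraries only. With 6 libraries only it was 0 for bud 3 against bud 2 in constant low P (1), 0 for resupply in bud 6 (1) and 2 for resupply in bud 7 (1). Without a fold threshold it was 4 for bud 7 against bud 3 in constant high P, 2 for buds 3, 6 and 7 against bud 2 after resupply and 3 for bud 7 against bud 2 in constant low P (1).

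Leaving out 1 library at a time gave 0 to 1 for buds 3, 6 and 7 against bud 2 after resupply and bud 3 against bud 2 in constant low P, 0 to 2 for resupply in bud 2, 0 to 1 in buds 3, 6 and 7, 1 to 2 for bud 7 against bud 2 in constant low P, 3 to 4 for buds 7 against 2 in both treatments of experiment 1 and for bud 6 against bud 3 in both, and 2 to 3 for bud 7 against bud 3 in constant high P.

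The replicate block changed no call of a receptor gene in the 12 comparisons whose numbers pair the libraries. In the other 20 it added 2 calls, both of Scf00009g00132.1: bud 3 against bud 2 after resupply (1.35, limma, adjusted p = 0.012) and resupply in bud 3 (1.57, adjusted p = 0.022). In 2 of those 20 every library correlated best with its own number.

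In smaller moves, quantile normalization took 4 called to 3 for buds 6 and 7 against bud 2 in both treatments of experiment 1 and 3 to 2 for buds 6 and 7 against bud 3 after withdrawal, and no fold threshold took 3 to 4 for bud 6 against bud 3 in both treatments and for bud 7 against bud 3 after withdrawal. Counts over all genes moved by more than 1.5 times under many settings and left-out libraries, for example without a fold threshold (resupply on average, 12946 instead of 1367), with precision weights (bud 6 against bud 3 after resupply, 2 instead of 137) and with 6 libraries only (bud 3 against bud 2 in constant low P, 0 instead of 3784; resupply in bud 3, 19 instead of 1765). Without replicate 3 of bud 3 in constant low P the last 2 were 6908 and 367, and without replicate 1 of that group 1208 and 4387. With 3 pools per group, the standard errors of the averages, 0.070 to 0.158 in experiment 1 and 0.088 to 0.303 in experiment 3, limit what could be detected.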

Other observations

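Replicate 3 had the lowest value of Scf00009g00132.1 in 7 of the 8 groups of experiment 3 and that of Scf00284g00412.1 in 6 of 8. Some replicate number was lowest in at least 7 groups of experiment 3 for 4.37% of all genes tested, and in at least 6 groups for 15.8%. For replicate 3 itself these shares were 2.02% and 7.44%. In experiment 1, replicate 1 was lowest for Scf00009g00132.1 in 6 of 8 groups. In that experiment 23.7% of genes had some replicate number lowest in at least 6 groups.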
